A study of Homo sapiens with 6 samples.

Results

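The genes described here are 34 genes of glucose and lactate transport, glycolysis, pyruvate oxidation and the pentose phosphate pathway. Each was named by symbol and found by its Ensembl identifier among the 67140 gene identifiers in the table. They were chosen for their place in the pathway, with earlier results of these data known. All 34 were among the 19254 identifiers that passed the filter on low counts. The samples came from KYSE150, an established human cell line of esophageal squamous cell carcinoma (ESCC), grown in RPMI medium with fetal bovine serum. Of the 6 samples, 3 carried a control hairpin (shCtrl) and 3 carried shAC007128.1, a hairpin against the long non-coding RNA AC007128.1. The study made its stable lines by lentivirus and puromycin, and 1 hairpin was used in 1 line, so an effect of the target, of this hairpin and of cell selection cannot be told apart. Nothing in the labels says that the samples of a group were separate cultures, so the p-values measure the spread between these samples, which may be technical.

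Glycolysis turns glucose into pyruvate in the cytosol: hexokinases trap the sugar as glucose 6-phosphate, the preparatory enzymes spend ATP to split it, and the payoff enzymes regain ATP and NADH. Pyruvate then either becomes lactate, which leaves the cell with a proton through monocarboxylate carriers, or enters mitochondria and is oxidized by the pyruvate dehydrogenase complex, which the PDK kinases switch off. The pentose phosphate pathway branches off at glucose 6-phosphate, its oxidative arm makes NADPH and its non-oxidative arm makes ribose 5-phosphate for nucleotides and returns carbon to glycolysis. Squamous carcinomas are known for high glucose uptake, and many enzymes of the pathway come as isozymes with different regulation.

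RNA was measured as poly-A selected RNA-seq, with 72354339, 78610457 and 65140326 counts in all for replicates 1, 2 and 3 of shCtrl and 57880388, 55764405 and 60158244 for those of shAC007128.1. Levels are CPM, counts per 1000000 counts of the sample after TMM scaling, always given in the order of replicates 1, 2 and 3. A level of 3 counts, between 0.0373 and 0.0546 CPM in these samples, was taken as the smallest detectable level, and it covers counting error only. A gene passed the test when edgeR's quasi-likelihood p, adjusted by Benjamini and Hochberg's method over all 19254 genes, was 0.05 or less. It was called 2-fold when its log2 fold change was also at least 1 in size.

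The target of the hairpin is the first check of the labels. AC007128.1 (ENSG00000229970, a lncRNA gene at chr7:8262264-8344516 on the plus strand of hg38, GENCODE v44) had 69, 33 and 53 counts in shCtrl and 18, 37 and 15 counts in shAC007128.1. This was 0.942, 0.410 and 0.781 CPM against 0.320, 0.673 and 0.258 CPM. The groups overlapped, since shAC007128.1 replicate 2 lay inside the shCtrl range, and the difference did not pass (log2 fold change -0.77 ± 0.51 (SE), edgeR adjusted p = 0.271). It passed under no alternative, with log2 fold changes from -1.29 to -0.51 and edgeR adjusted p of 0.0959 or more, the lowest without shAC007128.1 replicate 2. Its level is uncertain, since ICA1-AS1 and ENSG00000272328 on the same strand share 21.5% and 20.7% of its exon bases, and ICA1 on the opposite strand shares 6.37%. The counts of this gene therefore did not check the labels, and shCtrl and shAC007128.1 stand below for the libraries labelled so. By qPCR, a measure apart from these counts, the study reports that its hairpin lowered AC007128.1. That qPCR used GAPDH as its reference gene, and GAPDH counts were higher in the shAC007128.1 libraries (log2 fold change 0.69 ± 0.053 (SE)). Whether this had a part in the qPCR result was not tested. The hairpin is shown because it is the only designed difference between the groups. Capitals mark its pair of 19-base arms.
shAC007128.1: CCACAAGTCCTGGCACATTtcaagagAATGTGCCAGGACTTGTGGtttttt

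The first arm matched chr7:8343202-8343220 on the plus strand, in an annotated exon of AC007128.1. Among GENCODE v44 transcripts, 1 gene held all 19 bases in the sense direction, which was AC007128.1, and 0 of the 34 glucose pathway genes held them on either strand. The sequence that the study lists for the control has 20 bases and no second arm, so it is not that of a whole hairpin, and what the control could target is not known here. All 20 bases were found in 0 genes in either direction among the same transcripts, and so in 0 of the 34 genes.

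The cells carried the markers of their label. All 10 squamous epithelial markers were measured, and together they stood at 2335, 2296 and 2328 CPM in shCtrl and 4182, 3838 and 3472 CPM in shAC007128.1, with the basal keratin KRT5 the most abundant. Of these markers 7 were higher and 1 was lower in shAC007128.1, beside 21.0% and 19.8% of all genes tested. KRT14 and KRT6A were at 4.86 and 5.49 times the shCtrl mean, and DSG3, the lower marker, at 0.470 times. The 6 fibroblast markers summed to 15.2, 15.7 and 16.1 CPM and 20.9, 23.9 and 22.6 CPM, most of it from COL1A1, with 2 markers higher and 1 lower, and COL1A2 was at 0 in 5 of the 6 samples. The 4 leukocyte markers summed to between 0.589 and 1.29 CPM, led by CD3E and with none at 0 in every sample, and the 3 endothelial markers to between 0.302 and 3.11 CPM, led by VWF and with CDH5 at 0 in the 3 shAC007128.1 samples. None of these 7 markers passed, and those below the filter were not tested. The part of these markers in the results below was not tested.

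The shAC007128.1 libraries differed among themselves in base composition. Across 19156 genes, the deviation of a library from its group mean correlated with the GC content of the gene at 0.25, 0.20 and -0.39 in shAC007128.1 replicates 1, 2 and 3 (Pearson's r across genes, which are not independent replicates), and at 0.0025, -0.012 and 0.0099 in shCtrl. GC-rich genes thus read lower in shAC007128.1 replicate 3 than in its partners. The numbers of genes called are given with and without that library. The contrast between the groups also followed GC content, with a log2 fold change lower in GC-rich genes (r = -0.17 over the same genes), and the median GC content was 52.9% for the 34 genes and 48.3% for all genes tested.

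Most genes of the payoff steps were higher in shAC007128.1, while SLC2A1, HK2, ALDOC, PDK1, PGLS and TKT were lower. Of the 34 genes, 16 were higher, 6 were lower and 12 did not pass. The same calls were made for 21.0% and 19.8% of all 19254 genes tested. The 2-fold limit was met by 2 higher genes, PFKP and PGAM1, and by 2 lower genes, ALDOC and PGLS, beside 5.57% and 10.1% of all genes. All 3 shAC007128.1 samples lay above all 3 shCtrl samples for 17 of the 34 genes and below them for 8, against 27.0% and 28.2% of all genes. The median log2 fold change was 0.15 over the 34 genes and -0.024 over all genes tested. Without shAC007128.1 replicate 3, 17 of the 34 genes were higher and 8 lower, beside 4306 and 4152 of the 20365 genes then tested. In that setting 3 of the 34 were called 2-fold higher and 1 2-fold lower, and their median was 0.27. The median was 0.29 with correction for GC content and 0.081 with scaling by library size only. These are bulk samples, in which fewer cells with a transcript and less of it per cell cannot be told apart.

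**Figure D1:**
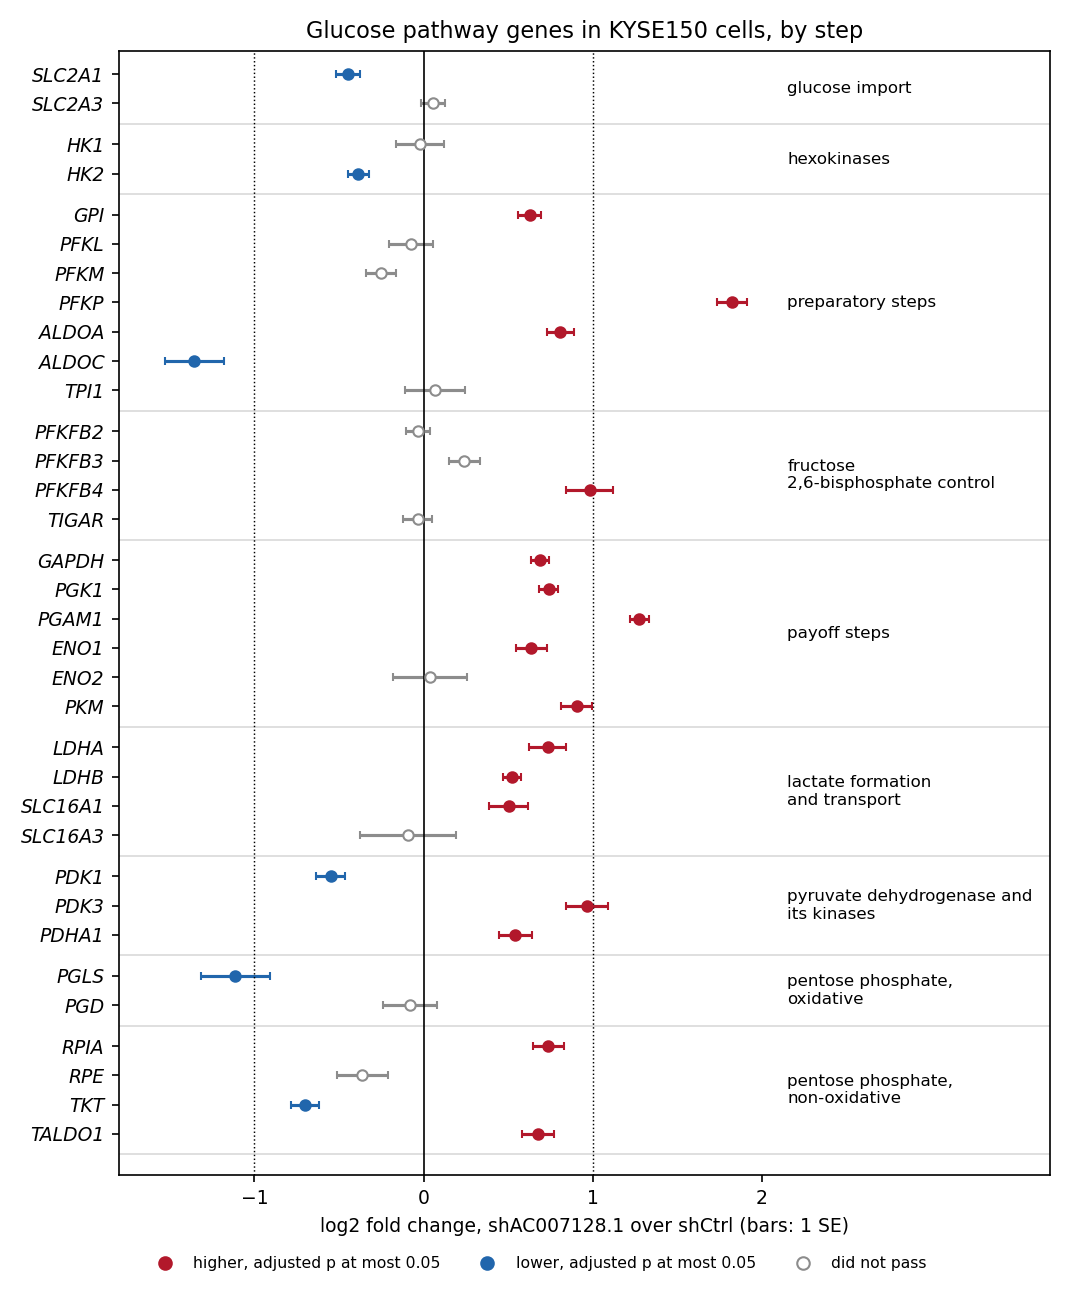
Log2 fold change of each of the 34 genes, shAC007128.1 over shCtrl (n = 3 and 3), on the horizontal axis, grouped by step; bars are 1 SE from edgeR, filled points passed the test, open points did not, and dotted lines mark a 2-fold change. PFKP and PGAM1 lie above 1, ALDOC and PGLS lie below -1, and 5 of the 6 payoff genes lie between 0.64 and 1.27.

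The 34 genes together held 1.22, 1.17 and 1.16% of all counts in shCtrl and 1.69, 1.64 and 1.56% in shAC007128.1. After scaling, the sum was 12009, 11391 and 11123 CPM in shCtrl and 17387, 16602 and 16168 CPM in shAC007128.1. Every shAC007128.1 sample was above every shCtrl sample, with a mean 1.45 times that of shCtrl, and 1.38 times without GAPDH, the most abundant gene. Sums are a description, with no test. The sum of the 6 payoff genes was 1.68 times the shCtrl mean, that of the 7 preparatory genes 1.62 times and that of the 4 lactate genes 1.47 times. Of the 7 preparatory genes, 3 were higher and 1 was lower, with a median log2 fold change of 0.068. PFKP alone went from a mean of 165 CPM in shCtrl to 584 CPM in shAC007128.1. The sums for glucose import and for the oxidative and non-oxidative pentose phosphate genes were 0.797, 0.753 and 0.724 times the shCtrl mean. TKT held most of the non-oxidative sum, and the other 3 genes of that arm summed to 1.35 times the shCtrl mean. The hexokinase sum differed less, at 0.884 times, and shCtrl replicate 1 stood above the rest.

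**Figure D2:**
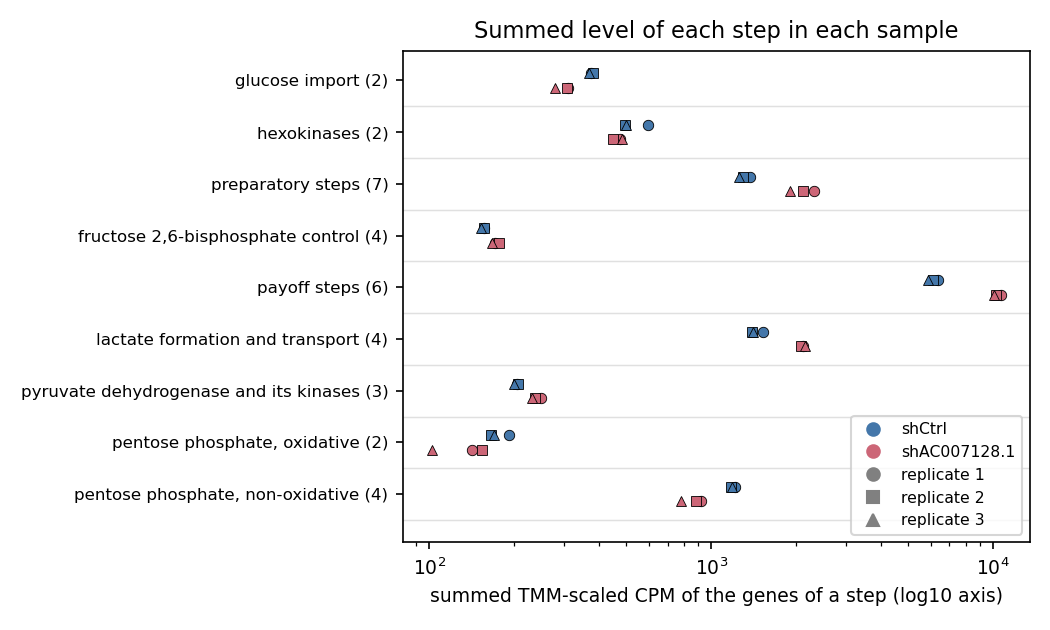
Summed CPM of the genes of each step (number of genes in brackets) in each sample, on a log10 axis; colors mark the groups and shapes the replicates. The payoff genes sum to between 5896 and 6378 CPM in shCtrl and between 10067 and 10686 CPM in shAC007128.1, and the oxidative pentose phosphate genes are lowest in shAC007128.1 replicate 3, at 102 CPM.

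Levels of different genes were compared per kilobase of annotated exons, with the exons of all transcripts of a gene merged. That length was 9502 bases for TKT and 2396 for GAPDH, and it can exceed the length of the transcripts expressed. The order between genes therefore depends on the annotation. In shCtrl the order was led by GAPDH at 1453 CPM per kilobase, then LDHB at 227, ENO1 at 202, PGAM1 at 139.6 and TKT at 107 CPM per kilobase. The lowest levels per kilobase were those of PDK3 at 0.870, PFKFB4 at 1.698 and ALDOC at 2.12. In shAC007128.1 GAPDH again led at 2340.4 CPM per kilobase, PGAM1 took place 2 at 338, and TKT moved from place 5 to place 12 of 34 at 65.6. PFKP moved from place 19 to place 10.

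Of the glucose carriers among the 34 genes, SLC2A1 (chr1:42925353-42958893, minus strand) encodes GLUT1, the basal glucose carrier of most epithelial cells. It was at 299, 303 and 294 CPM in shCtrl and at 229, 227 and 201 CPM in shAC007128.1. The groups did not overlap, and shAC007128.1 replicate 3 was the lowest sample (log2 fold change -0.44 ± 0.072 (SE), edgeR adjusted p = 0.00249). SLC2A3, which encodes the high-affinity carrier GLUT3, was at 77.1, 78.3 and 75.3 CPM in shCtrl and at 81.9, 81.1 and 77.0 CPM in shAC007128.1. These values overlapped and did not pass the test (log2 fold change 0.057 ± 0.070 (SE), edgeR adjusted p = 0.561). SLC2A3 is nearly identical in sequence to SLC2A14, so reads could be split between them and its value is uncertain. SLC2A14, named for this reason, stood at 0.806, 0.721 and 0.707 CPM in shCtrl and at 1.12, 1.201 and 1.53 CPM in shAC007128.1, and passed as higher (log2 fold change 0.78 ± 0.25 (SE), edgeR adjusted p = 0.0423). Of the 12 glucose and fructose transporters outside the 34 genes, SLC2A14 included, 8 were tested, 3 were higher and 3 lower, among them SLC2A12 (log2 fold change 0.94 ± 0.10, adjusted p = 0.000451), SLC2A6 (log2 fold change -1.25 ± 0.14, adjusted p = 0.000457), SLC2A9 (log2 fold change -0.84 ± 0.15, adjusted p = 0.00342) and SLC2A8 (log2 fold change 0.57 ± 0.12, adjusted p = 0.00689), with adjusted p from edgeR. SLC2A12 is uncertain, since TBPL1 on the opposite strand shares 51.2% of its exon bases.

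Hexokinases phosphorylate glucose and so hold it in the cell, and HK1 and HK2 are the forms bound to mitochondria. HK2 (chr2:74834127-74893359, plus strand), the inducible form raised in many tumors, was at 246, 243 and 248 CPM in shCtrl and at 192, 191 and 180.1 CPM in shAC007128.1. Each group was tight, with SDs of 2.52 and 6.76 CPM, and the shAC007128.1 samples were lower (log2 fold change -0.39 ± 0.061 (SE), edgeR adjusted p = 0.00229). HK1, the constitutive form, was at 351, 252 and 250.0 CPM in shCtrl and at 280.4, 257 and 303 CPM in shAC007128.1. It did not pass, and shCtrl replicate 1 stood above the other 5 samples (log2 fold change -0.020 ± 0.14 (SE), edgeR adjusted p = 0.923).

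Among the preparatory enzymes, phosphofructokinase commits the sugar to glycolysis and is built from platelet (PFKP), liver (PFKL) and muscle (PFKM) subunits. PFKP (chr10:3066333-3137718, plus strand) was at 162, 161 and 172 CPM in shCtrl and at 629, 605 and 517 CPM in shAC007128.1. All 3 shAC007128.1 samples were more than 3 times the highest shCtrl sample, and replicate 3 was the lowest of them (log2 fold change 1.82 ± 0.088 (SE), edgeR adjusted p = 2.5e-05). PFKL was at 158, 151 and 142 CPM in shCtrl and at 157, 157 and 115 CPM in shAC007128.1, with shAC007128.1 replicate 3 alone below the rest and the groups overlapping (log2 fold change -0.074 ± 0.13 (SE), edgeR adjusted p = 0.681). Its log2 fold change turned to 0.053 without that library, and to 0.18 with correction for GC content, where it passed (edgeR adjusted p = 0.04987). PFKM was at 114, 105 and 105 CPM in shCtrl and at 97.7, 91.8 and 82.3 CPM in shAC007128.1, where every shAC007128.1 sample was below every shCtrl sample but the difference missed the threshold (log2 fold change -0.25 ± 0.088 (SE), edgeR adjusted p = 0.0549). PFKM passed under 7 alternatives and not under the others. SENP1, on the opposite strand, shares 7.12% of the exon bases of PFKM and had 44.1% of its counts, so PFKM is uncertain.

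The aldolases, which cleave fructose 1,6-bisphosphate, went in opposite directions. ALDOA (chr16:30064164-30070457, plus strand), the main form in most cells, was at 336, 332 and 314 CPM in shCtrl and at 621, 581 and 516 CPM in shAC007128.1. The groups were separate, with shAC007128.1 higher (log2 fold change 0.81 ± 0.081 (SE), edgeR adjusted p = 0.000313). ALDOC (chr17:28573115-28576948, minus strand), a form best known from brain, was at 4.999, 6.37 and 5.21 CPM in shCtrl and at 2.26, 2.09 and 2.13 CPM in shAC007128.1, a low level with shCtrl replicate 2 the highest (log2 fold change -1.35 ± 0.17 (SE), edgeR adjusted p = 0.000873). ALDOA shares 42.8% of its exon bases with a read-through gene on the same strand, ENSG00000285043, whose counts were 9.09% of its own, so its level is uncertain. With both summed the log2 fold change of ALDOA was 0.81.

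GPI, which turns glucose 6-phosphate into fructose 6-phosphate, was at 311, 277 and 285 CPM in shCtrl and at 461, 428 and 459 CPM in shAC007128.1. The shAC007128.1 samples were all higher (log2 fold change 0.63 ± 0.070 (SE), edgeR adjusted p = 0.000488). TPI1, which interconverts the triose phosphates, was at 282, 264 and 230.1 CPM in shCtrl and at 348, 253 and 213 CPM in shAC007128.1. Its groups overlapped, with shAC007128.1 replicate 1 the highest and replicate 3 the lowest of the 6 samples (log2 fold change 0.068 ± 0.18 (SE), edgeR adjusted p = 0.789).

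Fructose 2,6-bisphosphate is the strongest activator of phosphofructokinase, made and broken down by the PFKFB enzymes and broken down by TIGAR, a p53 target that diverts sugar to the pentose phosphate pathway. PFKFB4 (chr3:48517684-48562015, minus strand) was at 9.44, 11.7 and 10.0 CPM in shCtrl and at 20.8, 22.8 and 17.8 CPM in shAC007128.1. The groups were apart and the difference was just under 2-fold (log2 fold change 0.98 ± 0.14 (SE), edgeR adjusted p = 0.00150). UCN2, on the same strand, shares 4.88% of the exon bases of PFKFB4 and had 8.13% of its counts, so PFKFB4 is uncertain. PFKFB3, the form with the highest kinase over phosphatase activity, was at 50.8, 49.6 and 45.3 CPM in shCtrl and at 57.2, 62.0 and 52.9 CPM in shAC007128.1. Its shAC007128.1 samples were all above shCtrl, without passing the test (log2 fold change 0.24 ± 0.093 (SE), edgeR adjusted p = 0.0757), and it passed without shAC007128.1 replicate 3 and with correction for GC content (adjusted p = 0.0254 and 0.00612). PFKFB2, the form of heart and kidney, was at 60.5, 58.9 and 57.0 CPM in shCtrl and at 57.8, 56.5 and 58.4 CPM in shAC007128.1, and TIGAR was at 35.4, 35.98 and 39.8 CPM in shCtrl and at 35.6, 35.1 and 37.6 CPM in shAC007128.1. Both overlapped between groups and neither passed, PFKFB2 with log2 fold change -0.031 ± 0.072 (SE), edgeR adjusted p = 0.760, and TIGAR with log2 fold change -0.035 ± 0.088 (SE), edgeR adjusted p = 0.779. YOD1, on the opposite strand, shares 3.10% of the exon bases of PFKFB2 and had 108% of its counts, so PFKFB2 is uncertain.

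The payoff steps held the most uniform change, with 5 of 6 genes higher and ENO2 alone not passing. GAPDH (chr12:6534512-6538374, plus strand) makes 1,3-bisphosphoglycerate and the NADH that lactate formation consumes. It was at 3641, 3528 and 3278 CPM in shCtrl and at 5571, 5467 and 5784 CPM in shAC007128.1. No sample of a group reached the other group (log2 fold change 0.69 ± 0.053 (SE), edgeR adjusted p = 0.000106). PGK1 (chrX, plus strand), which makes the first ATP of the payoff phase, was at 448, 436 and 417 CPM in shCtrl and at 745, 721 and 706 CPM in shAC007128.1, and it was likewise apart between groups (log2 fold change 0.74 ± 0.057 (SE), edgeR adjusted p = 0.000110).

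PGAM1 (chr10:97426191-97433444, plus strand), the mutase that moves the phosphate of 3-phosphoglycerate, was at 364, 349.9 and 349.7 CPM in shCtrl and at 883, 869.8 and 822 CPM in shAC007128.1. It was higher in every shAC007128.1 sample and the tightest of the 2-fold calls (log2 fold change 1.27 ± 0.058 (SE), edgeR adjusted p = 2.2e-05). The intronless copy PGAM4 is nearly identical to it, at 0.806, 0.385 and 0.530 CPM in shCtrl and at 1.99, 1.58 and 2.20 CPM in shAC007128.1, so both values are uncertain, although PGAM4 had few reads. ENO1, the main enolase, was at 1086, 1039.6 and 1031 CPM in shCtrl and at 1858, 1594 and 1454 CPM in shAC007128.1. All shAC007128.1 samples were higher, with replicate 1 well above replicate 3 (log2 fold change 0.64 ± 0.091 (SE), edgeR adjusted p = 0.00142). ENO2, the neuronal enolase, was at 25.1, 28.5 and 26.2 CPM in shCtrl and at 31.1, 33.1 and 17.8 CPM in shAC007128.1, where shAC007128.1 replicate 3 was the lowest sample and the other 2 the highest (log2 fold change 0.038 ± 0.22 (SE), edgeR adjusted p = 0.907).

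PKM (chr15:72199029-72231819, minus strand) encodes the muscle and tumor forms of pyruvate kinase, which the table does not separate. It was at 814, 738 and 794 CPM in shCtrl and at 1598, 1509.7 and 1282 CPM in shAC007128.1. Every shAC007128.1 sample was higher, replicate 3 the least (log2 fold change 0.90 ± 0.090 (SE), edgeR adjusted p = 0.000305). Among 20 other glycolytic isozymes, most of them forms of liver, muscle, testis or red cells, 11 were tested, 2 were higher and 3 lower. They included HKDC1, a hexokinase-like enzyme, which fell from 4.50 to 1.07 CPM (log2 fold change -2.07 ± 0.27 (SE), edgeR adjusted p = 0.000937), and the muscle enolase ENO3, from 10.3 to 4.74 CPM (log2 fold change -1.12 ± 0.16 (SE), edgeR adjusted p = 0.00133). ADPGK, a glucokinase that uses ADP, was higher (log2 fold change 0.63 ± 0.15 (SE), edgeR adjusted p = 0.0120), as was the uncertain PGAM4 (log2 fold change 1.745 ± 0.33 (SE), edgeR adjusted p = 0.00509).

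**Figure D3:**
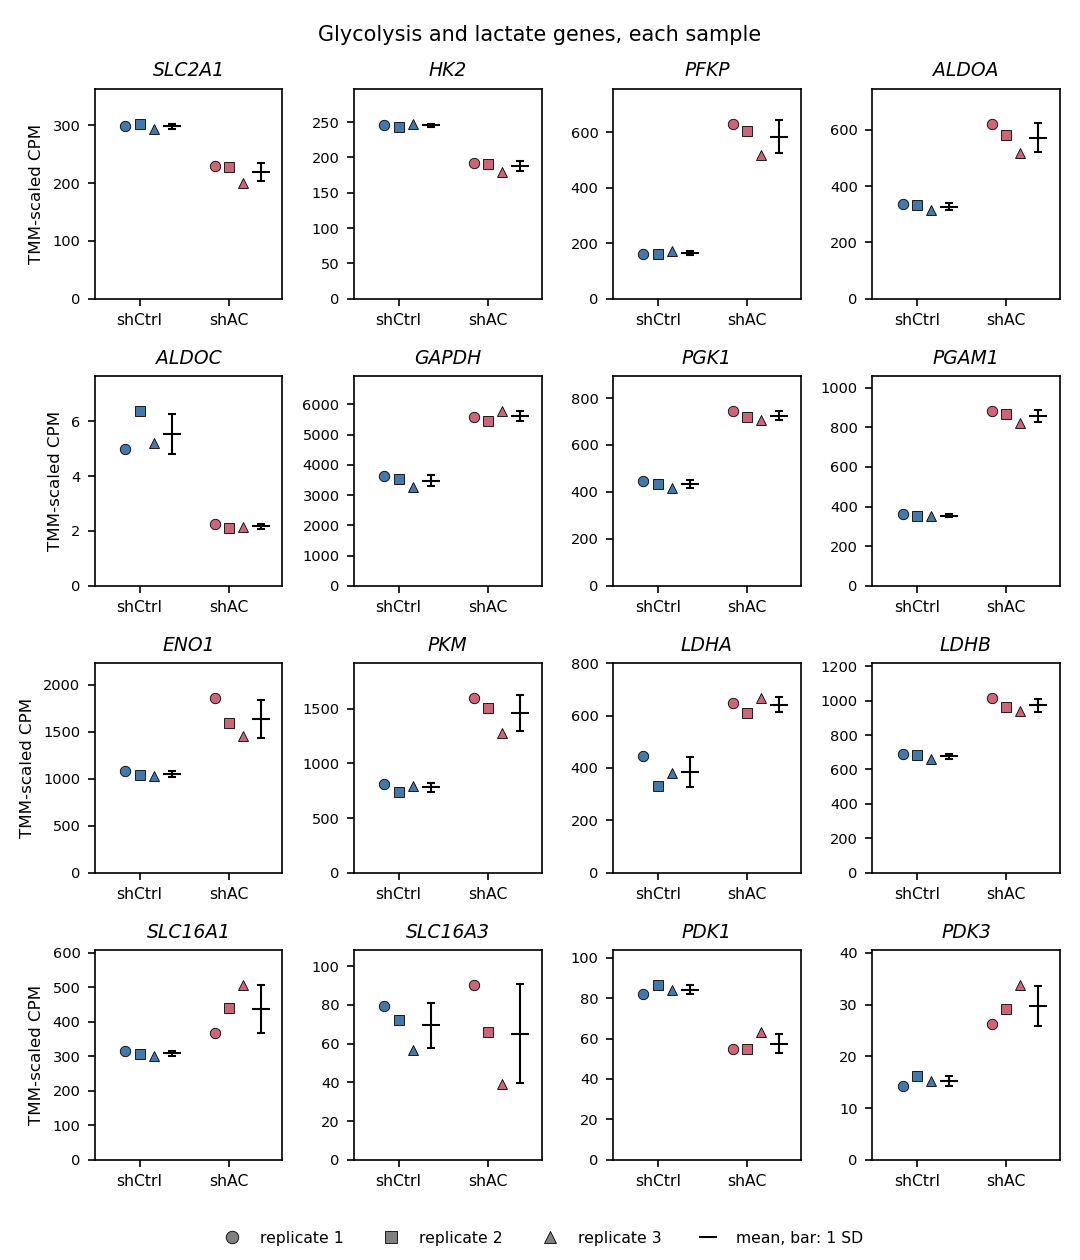
TMM-scaled CPM of 16 glycolysis and lactate genes in each sample, on axes from 0; shapes mark replicates, and the black line and bar are the mean and 1 SD (n = 3), with shAC short for shAC007128.1. SLC2A1, HK2, ALDOC and PDK1 are lower in all shAC007128.1 samples, SLC16A3 overlaps, and the other 11 are higher in all shAC007128.1 samples.

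Genes of lactate formation were higher, and of the lactate carriers SLC16A1 was higher while SLC16A3 did not pass. LDHA (chr11:18394560-18408425, plus strand) encodes the lactate dehydrogenase subunit that favors lactate. It was at 445, 331 and 382 CPM in shCtrl and at 648, 610.0 and 667 CPM in shAC007128.1. The shCtrl samples were spread, with replicate 2 the lowest, yet all stayed below shAC007128.1 (log2 fold change 0.73 ± 0.11 (SE), edgeR adjusted p = 0.00172). LDHB, whose subunit favors pyruvate, was at 689, 682 and 662 CPM in shCtrl and at 1015, 966 and 942 CPM in shAC007128.1, and again no sample overlapped (log2 fold change 0.52 ± 0.055 (SE), edgeR adjusted p = 0.000384). LDHB shares 33.4% of its exon bases with ENSG00000285854 on the same strand, whose counts were 0.00888% of its own, so its level is uncertain.

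SLC16A1 (chr1:112911847-112957593, minus strand) encodes MCT1, a carrier of lactate and pyruvate in both directions. It was at 316, 308 and 302 CPM in shCtrl and at 367, 439 and 506 CPM in shAC007128.1. The shAC007128.1 samples were all higher but spread widely, with replicate 3 the highest (log2 fold change 0.50 ± 0.11 (SE), edgeR adjusted p = 0.0107). SLC16A3, which encodes MCT4, the exporter of strongly glycolytic cells, was at 79.4, 72.4 and 56.7 CPM in shCtrl and at 90.2, 65.8 and 39.2 CPM in shAC007128.1. Its widest spread was within shAC007128.1, where replicate 1 was the highest and replicate 3 the lowest of all 6 samples (log2 fold change -0.094 ± 0.28 (SE), edgeR adjusted p = 0.817). That spread ran opposite to that of SLC16A1, and the genes differ in GC content, 62.6% for SLC16A3 and 43.5% for SLC16A1. Whether GC content had a part in this was not tested. CSNK1D, on the opposite strand, shares 5.22% of the exon bases of SLC16A3 and had 158% of its counts, so SLC16A3 is uncertain. Of 6 other monocarboxylate carriers and partners, 5 were tested and 1 passed, SLC16A8, a lactate carrier of retinal pigment epithelium, at 4.79, 5.88 and 5.79 CPM in shCtrl and at 1.05, 1.58 and 0.825 CPM in shAC007128.1. It was lower in every shAC007128.1 sample (log2 fold change -2.25 ± 0.27 (SE), edgeR adjusted p = 0.000679).

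Promoter sequence is shown for the E-box CACGTG, a motif that reads the same on both strands and through which MYC, HIF and the glucose-sensing factors are known to act on glycolytic genes. RefSeq promoter windows (GRCh38.p14, 250 bases before to 50 bases after a start, 300 bases in all) were found for 31 of the 34 genes. The E-box occurred in a window of 6 of these 31 genes (19.4%), against 8.78% of the 27305 genes with a window, 12.0% of the 11990 among them that were tested here, and 7.26% of all 35116 windows. They were 3 of 15 higher genes, 2 of 6 lower genes and 1 of 10 that did not pass. The shorter ACGTG, which CACGTG contains, was found on either strand in 17 of 31 genes (54.8%), against 31.3% of tested genes, and in 7 of 15 higher, 3 of 6 lower and 7 of 10 other genes. The matches are shown 5′ to 3′ with the E-box in capitals and 10 bases on each side.
HK2, chr2:74834966-74834991 (plus strand): ttgctgcgccCACGTGggagggagcc
HK2, chr2:74835011-74835036 (plus strand): ccggcgagagCACGTGgagagaatcg
PFKFB3, chr10:6202814-6202839 (plus strand): ccctcctcccCACGTGgaagggggct
LDHA, chr11:18394368-18394393 (plus strand): actcccagcgCACGTGgagcagtctg
LDHA, chr11:18394466-18394491 (plus strand): gcccgactcaCACGTGggttcccgca
GAPDH, chr12:6535173-6535198 (plus strand): tctgcggggtCACGTGtcgcagagga
ALDOA, chr16:30064375-30064400 (plus strand): gcagggaggcCACGTGatccgagtcc
ALDOC, chr17:28577120-28577145 (minus strand): aagtgcccggCACGTGgtaaagggat

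LDHA held 2 matches, 185 and 87 bases before its start, and so did HK2, 194 and 149 bases before. LDHA was higher and HK2 lower in shAC007128.1. ALDOA and ALDOC each held 1 match and also differed in direction, and PFKFB3 did not pass. The windows of HK2, PFKFB3, GAPDH and ALDOA lie inside the GENCODE bounds of the gene, since these genes have several starts. A match is a description of the window and not a site of binding.

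Pyruvate dehydrogenase turns pyruvate into acetyl-CoA, PDHA1 is the subunit that PDK kinases phosphorylate, and the kinases of this group went in opposite directions. PDK1 (chr2:172555373-172608669, plus strand) was at 82.1, 86.5 and 83.9 CPM in shCtrl and at 54.8, 54.7 and 63.2 CPM in shAC007128.1. All shAC007128.1 samples were lower (log2 fold change -0.55 ± 0.087 (SE), edgeR adjusted p = 0.00226). PDK3 (chrX, plus strand) was at 14.2, 16.2 and 15.1 CPM in shCtrl and at 26.1, 29.1 and 33.8 CPM in shAC007128.1, higher in every shAC007128.1 sample and just under 2-fold (log2 fold change 0.97 ± 0.12 (SE), edgeR adjusted p = 0.000902). PDHA1 was at 108, 104 and 101 CPM in shCtrl and at 168, 154 and 133 CPM in shAC007128.1, with replicate 3 the lowest of the higher shAC007128.1 samples (log2 fold change 0.54 ± 0.097 (SE), edgeR adjusted p = 0.00399).

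Of 9 other genes of the complex, 8 were tested, 3 were higher and 2 lower. PDHX, the subunit that binds the E3 enzyme to the core, was at 37.6, 37.5 and 38.4 CPM in shCtrl and at 77.6, 90.0 and 75.0 CPM in shAC007128.1. It was about doubled in all shAC007128.1 samples (log2 fold change 1.09 ± 0.093 (SE), edgeR adjusted p = 0.000155). PDPR, the regulatory subunit of the phosphatase that reactivates the complex, was lower (log2 fold change -0.93 ± 0.18 (SE), edgeR adjusted p = 0.00517, uncertain since a lncRNA on the opposite strand shares 22.3% of its exon bases), as was the phosphatase PDP1 (log2 fold change -0.31 ± 0.065 (SE), edgeR adjusted p = 0.00836). PDHB was higher (log2 fold change 0.37 ± 0.084 (SE), edgeR adjusted p = 0.0111), and did not pass without shCtrl replicate 2 or without shCtrl replicate 3 (adjusted p = 0.0555 and 0.0533).

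In the oxidative arm of the pentose phosphate pathway, PGLS was lower and PGD did not pass. PGLS (chr19:17511636-17521288, plus strand) hydrolyses 6-phosphogluconolactone. It was at 71.0, 72.0 and 67.5 CPM in shCtrl and at 41.0, 34.1 and 22.3 CPM in shAC007128.1. All shAC007128.1 samples were lower, and replicate 3 was far below replicate 1 (log2 fold change -1.11 ± 0.20 (SE), edgeR adjusted p = 0.00437). Without shAC007128.1 replicate 3 the log2 fold change was -0.91, past the test but under 2-fold. The antisense transcript PGLS-DT overlaps 8.94% of its exon bases, with 252, 318 and 344 counts in shCtrl and 61, 132 and 111 in shAC007128.1, and the use of strand is not given. PGD, which makes NADPH in the last step of the arm, was at 119.9, 93.8 and 102 CPM in shCtrl and at 100.5, 119 and 79.5 CPM in shAC007128.1. Both groups were spread and overlapped (log2 fold change -0.080 ± 0.16 (SE), edgeR adjusted p = 0.723).

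Of 8 other pentose phosphate genes, 5 were tested, 1 was lower and 2 higher. H6PD, which starts an oxidative arm inside the endoplasmic reticulum, was at 76.4, 73.5 and 74.2 CPM in shCtrl and at 24.4, 22.1 and 18.8 CPM in shAC007128.1. The groups were far apart (log2 fold change -1.78 ± 0.11 (SE), edgeR adjusted p = 5.1e-05). PRPS1, which makes phosphoribosyl pyrophosphate from ribose 5-phosphate, was higher (log2 fold change 1.12 ± 0.099 (SE), edgeR adjusted p = 0.000181), and so was DERA, which cleaves deoxyribose 5-phosphate (log2 fold change 0.71 ± 0.11 (SE), edgeR adjusted p = 0.00205).

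The non-oxidative arm was mixed. TKT (chr3:53224712-53256052, minus strand), the transketolase that moves 2-carbon units between sugars, was at 1029, 999.8 and 1015 CPM in shCtrl and at 671, 651 and 548 CPM in shAC007128.1. All shAC007128.1 samples were lower (log2 fold change -0.70 ± 0.083 (SE), edgeR adjusted p = 0.000625). TALDO1, the transaldolase that works beside it, was at 96.7, 91.5 and 83.1 CPM in shCtrl and at 159, 139 and 136 CPM in shAC007128.1. It was higher in all 3 (log2 fold change 0.68 ± 0.094 (SE), edgeR adjusted p = 0.00122). RPIA, which isomerizes ribulose 5-phosphate to ribose 5-phosphate, was at 31.5, 31.1 and 29.3 CPM in shCtrl and at 55.5, 50.9 and 47.0 CPM in shAC007128.1 and also apart between groups (log2 fold change 0.74 ± 0.093 (SE), edgeR adjusted p = 0.000831).

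RPE, which epimerizes ribulose 5-phosphate, was at 53.3, 55.7 and 55.99 CPM in shCtrl and at 33.7, 43.1 and 51.5 CPM in shAC007128.1. Every shAC007128.1 sample was below every shCtrl sample, with replicate 1 the lowest, but the test was not passed (log2 fold change -0.36 ± 0.15 (SE), edgeR adjusted p = 0.0921). It passed without shAC007128.1 replicate 3 (log2 fold change -0.53, edgeR adjusted p = 0.0137) and with correction for GC content (-0.60, adjusted p = 0.00272). Without shAC007128.1 replicate 1 its log2 fold change was -0.22 and did not pass. KANSL1L, on the opposite strand, overlaps 23.8% of the exon bases of RPE, so its value is uncertain.

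**Figure D4:**
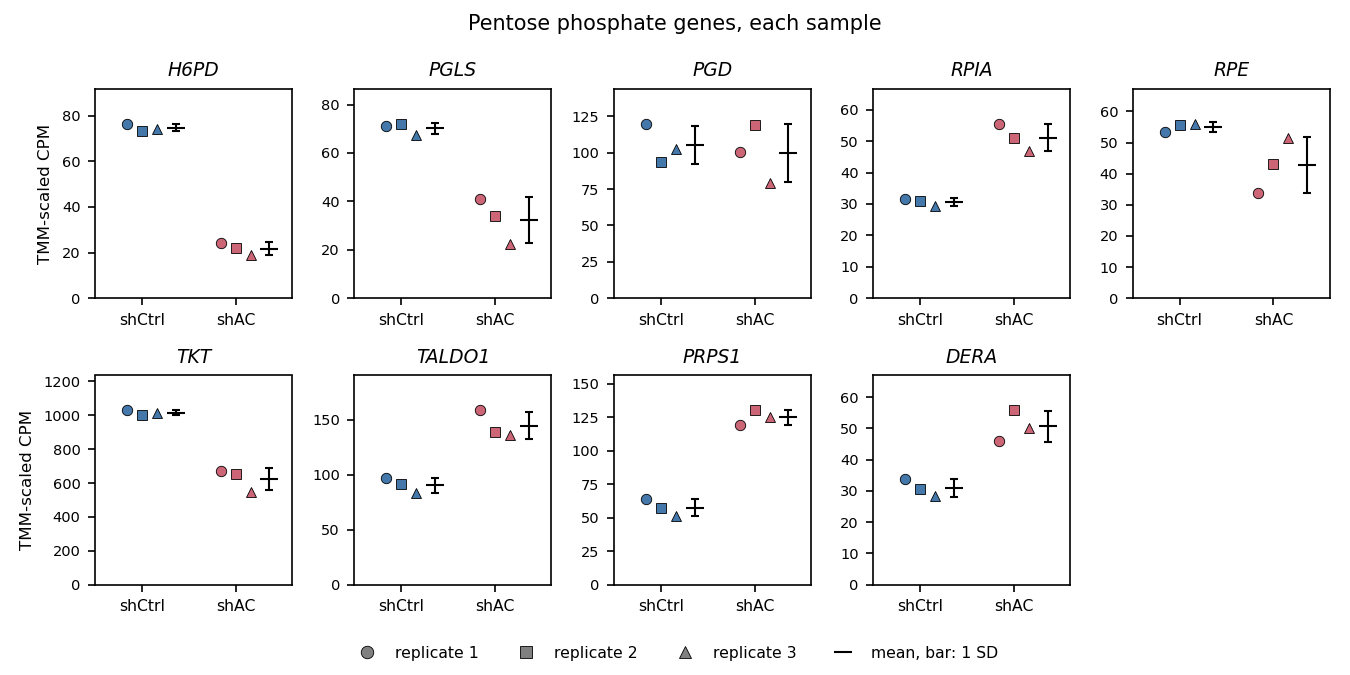
TMM-scaled CPM of the 6 pentose phosphate genes of the 34, with H6PD, PRPS1 and DERA from the list of other pentose phosphate enzymes, in each sample, on axes from 0; shapes mark replicates, and the black line and bar are the mean and 1 SD (n = 3). H6PD, PGLS, RPE and TKT are lower in every shAC007128.1 sample, RPE without passing the test, PGD overlaps, and the other 4 are higher.

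Ratios of isozymes within a sample do not depend on the scaling between samples, but they were not corrected for GC content. That content differed within pairs, at 64.1% for PFKL, 54.5% for PFKP and 51.5% for PFKM. The smallest p that 3 against 3 samples allow in a two-sided exact permutation test is 0.1, so none of the 11 ratios compared could pass 0.05. Between groups, 7 of the 11 did not overlap. For single genes, 27.0% of all tested lay above shCtrl in every shAC007128.1 sample and 28.2% below. The share over ratios of other genes was not computed. The ratio of PFKP to PFKL, per kilobase, was 1.18, 1.22 and 1.39 in shCtrl and 4.61, 4.43 and 5.18 in shAC007128.1 (log2 difference 1.91, two-sided exact permutation p = 0.1). PFKP was thus close to PFKL in shCtrl and over 4 times as high in shAC007128.1. The ratio of PDK3 to PDK1 was 0.147, 0.159 and 0.153 in shCtrl and 0.406, 0.454 and 0.455 in shAC007128.1 (log2 difference 1.51, two-sided exact permutation p = 0.1), and PDK1 remained the higher of the pair in all 6 samples. The ratio of ALDOC to ALDOA was 0.0218, 0.0282 and 0.0244 in shCtrl and 0.00533, 0.00528 and 0.00605 in shAC007128.1 (log2 difference -2.15, two-sided exact permutation p = 0.1).

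The ratio of SLC2A3 to SLC2A1 was 0.235, 0.236 and 0.234 in shCtrl and 0.326, 0.325 and 0.349 in shAC007128.1, the tightest of the ratios in shCtrl (log2 difference 0.50, two-sided exact permutation p = 0.1). PFKFB4 over PFKFB3 also did not overlap (log2 difference 0.74, two-sided exact permutation p = 0.1), nor did PFKFB2 over PFKFB3 (log2 difference -0.27, two-sided exact permutation p = 0.1) and ENO2 over ENO1 (log2 difference -0.64, two-sided exact permutation p = 0.1). These 7 shared a Benjamini-Hochberg adjusted permutation p of 0.157 over the 11 ratios. The ratios of HK2 to HK1, PFKM to PFKL, LDHB to LDHA and SLC16A3 to SLC16A1 overlapped, with permutation p between 0.2 and 0.3 in the exact test. LDHB was 2.85 to 4.17 times LDHA per kilobase over the 6 samples, with merged exon lengths of 2983 bases for LDHB and 6026 for LDHA. Without regard to length, mean levels were 678 CPM for LDHB and 386 CPM for LDHA in shCtrl. In shAC007128.1 they were 974 and 642 CPM.

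**Figure D5:**
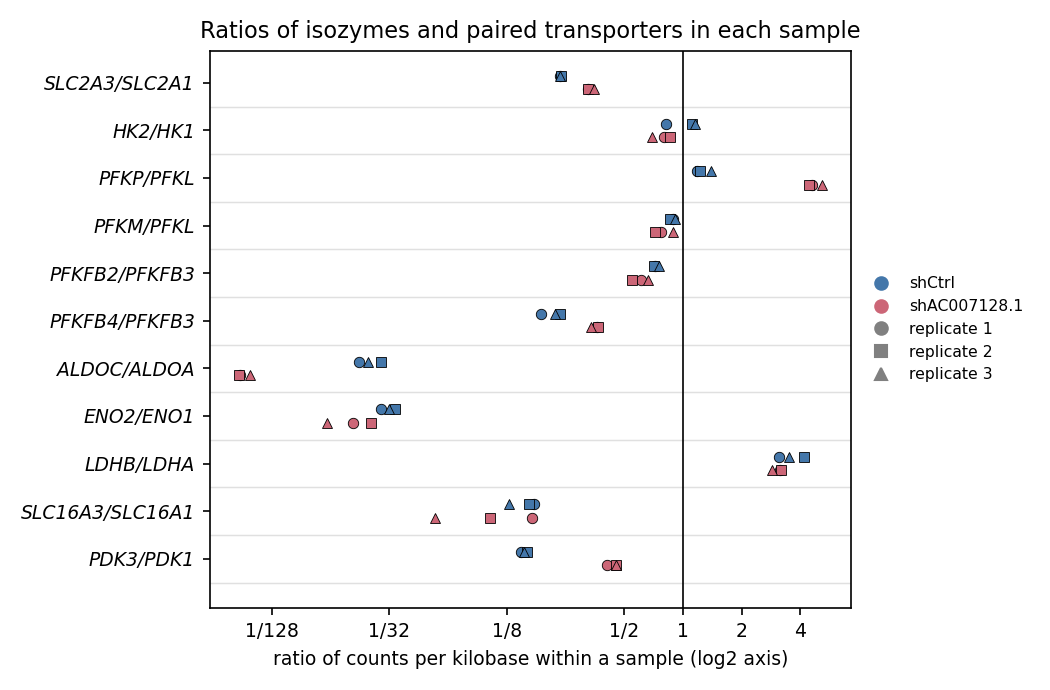
Ratio of counts per kilobase of exon for 11 pairs of isozymes or carriers in each sample, on a log2 axis with a line at 1; colors mark the groups and shapes the replicates. PFKP over PFKL moves from between 1.18 and 1.39 in shCtrl to between 4.43 and 5.18 in shAC007128.1, and SLC16A3 over SLC16A1 is the most spread within shAC007128.1.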

How the data were processed

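The 34 genes and the lists of other genes were chosen with earlier results of these data known. The study filtered out rRNA, adapters and poor reads, aligned to hg38 with TopHat and derived FPKM by Cufflinks. The submitters' notes name CASAVA 1.8, TopHat2 2.0.6 and the builds mm10 and GRCh38. The authors deposited unnormalized estimated counts for Ensembl genes, given as whole numbers, and the sources used here do not give the counting program, annotation or use of strand. Titles and descriptions of the samples gave the groups, which left 0 sample columns unmapped. The treatment text reads shAC007128.1 in all 6 samples and cannot tell them apart.

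Symbols, positions and exon lengths come from GENCODE v44, which holds 60357 of the 67140 identifiers (89.9%). Low counts were removed by filterByExpr and libraries scaled by TMM (factors 0.967 to 1.04). Tests used the functions glmQLFit and glmQLFTest of edgeR 4.0.16 under R 4.3.3, with the SE obtained from the log2 fold change and the root of F. The limits of adjusted p 0.05 and fold 2 are those of the study, whose Cuffdiff step needs reads. In each list of other genes, up to 4 that passed are named, those with the smallest p. Some items are not reported here.

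The alternatives were DESeq2 1.42.0, limma-voom (3.58.1), DESeq2's size factors, scaling by library size, other filters on low counts, a replicate block, each sample left out, counts divided by 4 (low counts pile up at multiples of 4), each gene summed with its processed pseudogenes, and glmTreat against a fold of 1.5. Correction for GC content, with and without the block, and sums with overlapping genes were added after seeing the data. The steps were tested on simulated counts.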

Additional observations from a re-analysis of the deposited data

How the results depend on the processing

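All 22 of the 34 genes that passed the test kept their call and direction under limma-voom, DESeq2, its size factors in edgeR, scaling by library size only, both other filters, counts divided by 4, pseudogene sums, the replicate block, GC content correction with and without the block, and with each sample left out. Under glmTreat against a fold of 1.5, 7 of the 16 higher and 2 of the 6 lower genes passed, beside 1193 higher and 1518 lower of all 19254 genes. PFKM also passed under 7 of these alternatives, and PFKFB3 and RPE under 3, which were GC content correction with and without the block and leaving out shAC007128.1 replicate 3. With GC content correction, alone or with the block, 4 genes were called 2-fold higher (PFKFB4 and PKM besides PFKP and PGAM1) and 1 2-fold lower (ALDOC), and the median log2 fold change was 0.29 with and without the block. With library size only it was 0.081, while the median of all genes was -0.098. The cause of these shifts was not tested.

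With samples left out in turn, 16 to 17 genes were higher and 6 to 8 lower, 2 to 4 were 2-fold higher and 1 to 2 2-fold lower, and the median was 0.11 to 0.27. Among all genes, 3092 to 4306 were higher and 2854 to 4152 lower, of 19780 to 20371 tested. The 2-fold calls over all genes were counted in the main fit only. Without shAC007128.1 replicate 3, PGLS was not 2-fold. PFKFB4 was 2-fold higher without shAC007128.1 replicate 3 or shCtrl replicate 2, and PDK3 without shAC007128.1 replicate 1 or shCtrl replicate 2.

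Some genes that did not pass changed sign. With GC content correction, the log2 fold change was 0.091 for HK1, 0.18 for PFKL, which then passed (edgeR adjusted p = 0.04987), and 0.12 for SLC16A3, and with the block as well 0.10, 0.18 and 0.087, where PFKL did not pass. With library size only it was -0.017 for SLC2A3, -0.0050 for TPI1 and -0.034 for ENO2, and ENO2 was at -0.017 under limma-voom, -0.0055 with no filter and -0.0086 with the block. With samples left out, the range was -0.11 to 0.16 for HK1, -0.15 to 0.053 for PFKL, -0.15 to 0.21 for TPI1, -0.074 to 0.014 for TIGAR, -0.12 to 0.26 for ENO2, -0.41 to 0.16 for SLC16A3 and -0.22 to 0.051 for PGD. The cause was not tested.

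Replicate numbers are shared between groups, but the deviations of same-numbered samples correlated at 0.031, -0.025 and -0.030 over 19254 genes. These values gave no sign that the numbers pair the samples. They cannot settle it, since the deviations in shAC007128.1 also followed GC content. With the replicate block, 16 genes were higher, 6 lower, 2 2-fold higher and 2 2-fold lower, 3524 and 3256 of all genes were higher and lower, and the median was 0.15. Processed pseudogenes held at most 0.882% of the counts of their parent gene. Among exon overlaps not named above, MAP3K15 shares 19.3% of the exon bases of PDHA1 and ENSG00000285901 18.1% of those of TIGAR. ENSG00000269968 shares 17.6% of those of GAPDH and ENSG00000265168 11.3% of those of ALDOC. They had 0.0840% of the counts of PDHA1, 0% for TIGAR, 0.485% for GAPDH and 0% for ALDOC, and these levels are uncertain too. Depth limits low genes most: ALDOC had 115 to 513 counts, while the other 33 had 679 or more in every sample.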

Other observations

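The lists of other glucose genes hold 83 genes, of which 59 were tested. In shAC007128.1 15 of them were higher and 15 lower (25.4% each), beside 21.0% and 19.8% of all genes tested, and their median log2 fold change was -0.064.

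Of 8 genes of gluconeogenesis 4 were tested, and 1 passed. PCK2, the mitochondrial enzyme that makes phosphoenolpyruvate, was at 114, 108 and 115 CPM in shCtrl and at 18.1, 19.8 and 16.5 CPM in shAC007128.1. It was lower in every shAC007128.1 sample by more than 5 times (log2 fold change -2.63 ± 0.096 (SE), edgeR adjusted p = 1.6e-05). G6PC3, the widely expressed glucose 6-phosphatase, is listed at 0 counts in 5 samples and at 3 counts in the other, which may come from how reads were counted.

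Glycogen genes were tested for 10 of 11, with 3 higher and 2 lower. UGP2, which makes UDP-glucose, was at 69.1, 58.7 and 67.7 CPM in shCtrl and at 122, 131 and 159 CPM in shAC007128.1. It was higher in all shAC007128.1 samples (log2 fold change 1.07 ± 0.12 (SE), edgeR adjusted p = 0.000513). The synthase GYS1 (log2 fold change 0.53 ± 0.079 (SE), edgeR adjusted p = 0.00164) and the branching enzyme GBE1 (log2 fold change 0.85 ± 0.13 (SE), edgeR adjusted p = 0.00187) were also higher. The muscle phosphorylase PYGM was lower at a low level, 1.31 ± 0.538 CPM (SD, n = 3) in shCtrl and 0.516 ± 0.137 CPM in shAC007128.1 (log2 fold change -1.34 ± 0.40 (SE), edgeR adjusted p = 0.0305), and lost the call in 7 of 16 alternatives, with adjusted p from 0.0198 to 0.120 over them. The brain phosphorylase PYGB was lower too, though outside the 4 smallest p-values and so named after its values were seen (log2 fold change -0.34 ± 0.11 (SE), edgeR adjusted p = 0.0366). The liver phosphorylase PYGL, named for the same reason, did not pass (log2 fold change 0.12 ± 0.055 (SE), edgeR adjusted p = 0.125).

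Of 9 regulators of glucose use, 8 were tested, with 2 higher and 2 lower. The glucose-sensing factor MLXIP, also called MondoA, was at 85.2, 84.1 and 83.3 CPM in shCtrl and at 139, 149.7 and 147 CPM in shAC007128.1. It was higher in shAC007128.1 (log2 fold change 0.79 ± 0.067 (SE), edgeR adjusted p = 0.000155), and its relative MLXIPL was lower (log2 fold change -0.95 ± 0.21 (SE), edgeR adjusted p = 0.00913), without passing under GC content correction with the block (adjusted p = 0.0676). ARRDC4, an arrestin that limits glucose uptake, was at 9.59, 11.7 and 9.94 CPM in shCtrl and at 112, 111 and 131 CPM in shAC007128.1, a mean 11.3 times that of shCtrl (log2 fold change 3.50 ± 0.12 (SE), edgeR adjusted p = 1.6e-05). TXNIP, its close relative, is listed at 0 counts in 5 samples and 4 in shAC007128.1 replicate 3, so it could not be compared.

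EPAS1, the hypoxia factor HIF2A, was at 194, 104 and 102 CPM in shCtrl and at 60.1, 55.7 and 55.5 CPM in shAC007128.1. The shCtrl replicate 1 value stood far above the rest, and without it the log2 fold change was -0.85 in place of -1.22, with adjusted p = 0.00182 from edgeR. The same library was also the highest for HK1.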
